A study of Mus musculus with 6 samples.

Results

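The 9 genes described here are the adult globin genes Hba-a1, Hba-a2, Hbb-bs and Hbb-bt and the genes of 5 heme enzymes, Alas1, Cpox, Fech, Hmox1 and Blvrb. They were picked by name, with earlier results of the same comparison in view, and each was found among the 11835 genes of the expression table by matching its transcripts to GENCODE and adding up their values. Because that comparison chose them, their differences between the groups, with their standard errors, are given as a description and no significance is claimed for them. RNA was sequenced from C2C12 cells, a line of mouse myoblasts that fuse into myotubes in low serum. In the 3 siNC libraries the cells had received NC siRNA, a negative control, and in the 3 siCNN3 libraries CNN3 siRNA, which targets the actin-binding protein calponin 3. Both groups were grown in 10% fetal bovine serum and differentiated in 2% horse serum, the labels give their cell type as mouse myotube, and no label states whether the libraries came from separate cultures, so the spread between them may be technical. Both groups come from 1 cell line, and which CNN3 siRNA the sequenced cells received is not named.

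Hemoglobin is a tetramer of alpha and beta globin chains, each of which holds a heme, and red cell precursors make it in large amounts under erythroid transcription factors. In the mouse the adult alpha chains are encoded by Hba-a1 and Hba-a2 and the adult beta chains by Hbb-bs and Hbb-bt, and muscle has its own heme protein, myoglobin (Mb). Every cell makes heme for its cytochromes. Aminolevulinate synthase (Alas1) opens the pathway, coproporphyrinogen oxidase (Cpox) acts late in it and ferrochelatase (Fech) puts in the iron, while heme oxygenase 1 (Hmox1) opens the ring to biliverdin and biliverdin reductase B (Blvrb) reduces biliverdin and flavins.

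The globin paralogs are nearly the same sequence in the reference, which bears on every globin value below. The GENCODE transcripts of Hba-a1 (ENSMUST00000093209, 699 nucleotides, chromosome 11 of GRCm38, 32283511 to 32284465) and Hba-a2 (ENSMUST00000093207, 554 nucleotides, chromosome 11, 32296489 to 32297298) each have 3 exons and a coding sequence of 426 bases without the stop codon, and differ at 1 of these bases. Counted from the A of the start codon, that is C381T in exon 3, with the base of Hba-a1 first and that of Hba-a2 second. It is shown in capitals within coding bases 361 to 401 on the strand of the genes, since it is all that separates the 2 coding sequences:
Hba-a1, chr11:32284323-32284363: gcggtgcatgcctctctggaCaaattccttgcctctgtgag
Hba-a2, chr11:32297140-32297180: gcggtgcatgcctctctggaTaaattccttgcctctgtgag

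Hbb-bs (ENSMUST00000023934, 628 nucleotides, chromosome 7 of GRCm38, minus strand, 103826534 to 103827928) and Hbb-bt (ENSMUST00000098192, 703 nucleotides, 103812524 to 103813996) also have 3 exons each, and their 441 coding bases differ at 1 position, C417T in exon 3, with the base of Hbb-bs first. Coding bases 397 to 437 are printed 5′ to 3′ along the genes, with this base in capitals:
Hbb-bs, chr7:103826672-103826712: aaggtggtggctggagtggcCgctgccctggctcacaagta
Hbb-bt, chr7:103812663-103812703: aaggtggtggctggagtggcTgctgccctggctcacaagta

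Of all stretches of 100 nucleotides in the Hba-a2 transcript, 74.5% occurred unchanged in that of Hba-a1, and 56.5% of those of Hba-a1 occurred in Hba-a2. For stretches of 50 nucleotides the shares were 86.9% and 67.5%. Of the Hbb-bs stretches of 100 nucleotides, 62.6% occurred in Hbb-bt, and 54.8% of those of Hbb-bt occurred in Hbb-bs. No stretch of 50 nucleotides was shared between Hba-a1 and Hbb-bs, whose coding sequences had 64.1% identical bases among 410 aligned. How the authors' program divided reads that match both paralogs is not given in the sources used here, so the values of single paralogs and their sums are uncertain to that extent. In addition, C2C12 cells descend from C3H mice, which carry a different beta globin haplotype from the C57BL/6J reference in which Hbb-bs and Hbb-bt are named, so these names mark the closest reference gene. The identities and shared stretches given here are those of the reference, and those of the cells' own beta genes were not examined.

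Promoters of 7 of the 9 genes were found in the RefSeq table (GRCm38.p6, 250 bases before and 50 after the start). Those of Hba-a1 and Hba-a2 were identical over all 297 bases compared once shifted by 3 bases, while the 250 bases upstream of Hbb-bs and Hbb-bt had 73.3% identical bases among 243 aligned. A search of both strands for 4 short motifs found CACCC in 57.5% of 32851 promoters of that length, the motif CCAAT in 37.4%, the motif GATAA in 25.4% and the motif TATAA in 24.9%. Each globin promoter held all 4 of them. Both listed promoters of Alas1 and of Blvrb held CACCC only, and that of Cpox held CACCC and GATAA. Starts are those of RefSeq, and the GENCODE transcripts of Hba-a1, Hba-a2 and Hbb-bt begin further upstream, that of Hba-a2 by 3 bases, as does a second one of Hbb-bs. The TATAA and CCAAT windows of Hba-a1 and the TATAA window of Hbb-bt thus lie within the spans of the GENCODE transcripts measured for these genes. The windows around TATAA (capitals), 27 to 30 bases before the start, show what alpha and beta globin promoters had in common:
Hba-a1, chr11:32283633-32283662: ccttggagggcaTATAAgtgctacttgctg
Hba-a2, chr11:32296450-32296479: ccttggagggcaTATAAgtgctacttgctg
Hbb-bs, chr7:103827940-103827969: cagggcagagcaTATAAggtgaggtaggat
Hbb-bt, chr7:103813934-103813963: cagcattgggtaTATAAagctgagcagggt

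The windows around CCAAT (capitals) lay 91 to 75 bases before the start. In Hbb-bt, the CCAAT shown directly followed a CCAAT on the other strand:
Hba-a1, chr11:32283572-32283601: agcacaaaccagCCAATgagaactgctcca
Hba-a2, chr11:32296389-32296418: agcacaaaccagCCAATgagaactgctcca
Hbb-bs, chr7:103827987-103828016: ccctggtaagggCCAATctgctcacacagg
Hbb-bt, chr7:103813981-103814010: ccctggcattggCCAATctgctcagagagg

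The values are FPKM, which scale the fragments of a transcript by its length and by all mapped fragments of the library, and the read depth is unknown. Values of a group are given in the order of its replicates 1, 2 and 3. Summed over the listed transcripts they came to 322621 FPKM in siNC replicate 1 and between 347064 and 355591 in the other libraries, and 2131 transcripts were listed at 0 in siNC replicate 1 compared with 978 to 1333 in the others. A 0 can be a failed estimate, so it was not read as absence. Cnn3, the gene targeted, had 62.8, 61.4 and 62.8 FPKM under NC siRNA against 19.0, 39.2 and 25.6 under CNN3 siRNA, with no overlap. Its log2 difference of -1.19 (standard error 0.242, adjusted p = 0.0669, limma) did not pass the test, and the two-sided exact permutation p was 0.1, the smallest that 3 libraries against 3 can give. Without siCNN3 replicate 2 Cnn3 was called lower, at -1.46. All 11593 genes that averaged 0.5 FPKM or more over the libraries were fitted with limma on log2(FPKM + 1), and a gene is said to be called when its Benjamini-Hochberg adjusted p was below 0.05. This scale understates differences of genes with low FPKM. Of these genes 2.06% were called, 1.73% higher and 0.336% lower in siCNN3, while an unadjusted p below 0.05 was reached by 1152 higher and 712 lower genes. The siCNN3 values lay below all siNC values for 9.35% and above them for 13.8%.

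The 4 adult globin genes were lower in every siCNN3 library than in any siNC library. Together they came to 224, 653 and 232 FPKM under NC siRNA and to 68.2, 72.7 and 49.9 under CNN3 siRNA. Beta globin differed more than alpha globin between the groups. The mean of the Hbb pair in siCNN3 was 9.08% of that in siNC, and the mean of the Hba pair was 24.0%. Both siNC means are raised by siNC replicate 2. There the Hbb pair had 315 FPKM, beside 91.5 and 98.1 in siNC replicates 1 and 3, and the Hba pair 339, beside 133 and 134. Globin RNA was thus detected in every library of both groups. In bulk RNA, fewer globin-expressing cells and less globin RNA per cell cannot be told apart.

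Hba-a1 showed 72.7, 171 and 73.0 FPKM with NC siRNA and 27.4, 31.4 and 23.0 with CNN3 siRNA. Hba-a2 reached 60.3, 167 and 60.6 FPKM in the siNC libraries, compared with 23.3, 23.6 and 16.4 in the siCNN3 libraries. In both genes siNC replicates 1 and 3 were almost equal, siNC replicate 2 was more than 2 times higher, and siCNN3 replicate 3 was the lowest library. The log2 difference was -1.80 with a standard error of 0.338 for Hba-a1 and -1.98 with a standard error of 0.401 for Hba-a2. Added up, the pair had a siNC mean of 202 ± 119 FPKM and a siCNN3 mean of 48.4 ± 8.06 (SD, n = 3). The log2 difference of this Hba sum was -1.90 (standard error 0.367), and it was -1.46 without siNC replicate 2.

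Hbb-bs had 73.4, 250.4 and 75.8 FPKM in siNC against 12.7, 12.3 and 7.77 in siCNN3. Hbb-bt showed 18.1, 64.1 and 22.2 FPKM with NC siRNA and 4.83, 5.43 and 2.79 with CNN3 siRNA. The libraries took nearly the same order as in the alpha genes, with siNC replicate 2 highest and siCNN3 replicate 3 lowest. The log2 difference was -3.27 (standard error 0.478) for Hbb-bs and -2.56 (standard error 0.468) for Hbb-bt. With the pair added up before the fit, the Hbb sum had a siNC mean of 168 ± 127 FPKM and a siCNN3 mean of 15.3 ± 4.08 (SD, n = 3). Its log2 difference was -3.17 (standard error 0.480), and it was -2.59 without siNC replicate 2.

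**Figure D1:**
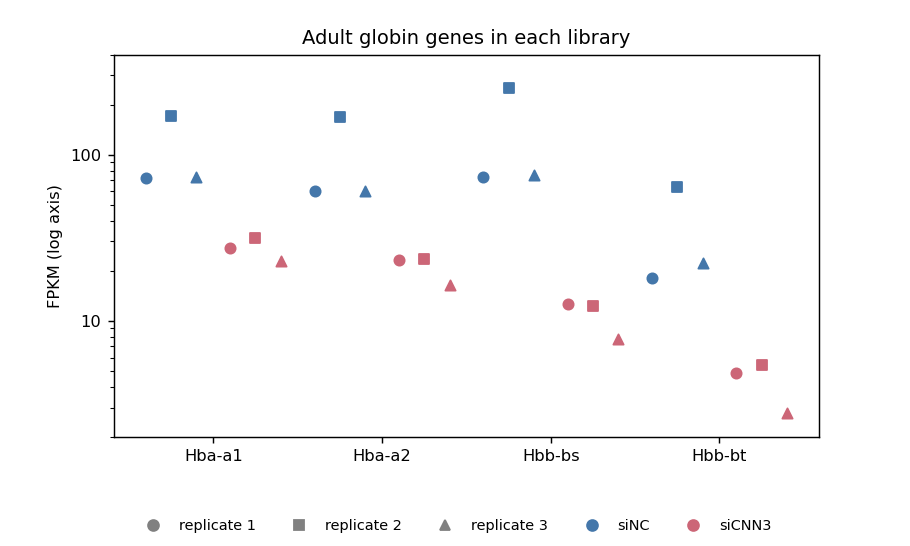
FPKM of the 4 adult globin genes (log axis) in each of the 3 siNC (blue) and 3 siCNN3 (red) libraries, with 1 symbol for each replicate number. For every gene siNC replicate 2 is the highest library, 171 for Hba-a1 and 250.4 FPKM for Hbb-bs, and the red points lie below the blue ones.

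Thus 2 of the 4 globin genes were called lower, where 0.336% of all genes were, and 4 of 4 had groups that did not overlap, where 9.35% of all genes had siCNN3 below siNC. The comparison itself led to their choice, so nothing is read from these counts, which also ran from 0 to 4 genes called when 1 library was left out. The log2 differences kept their sign in those fits. They were smallest in size without siNC replicate 2, at -1.39 for Hba-a1, -1.49 for Hba-a2, -2.69 for Hbb-bs and -2.01 for Hbb-bt, and largest in size without siNC replicate 1, at -2.01, -2.22, -3.57 and -2.90.

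The siNC libraries varied more in globin RNA than the siCNN3 libraries did. Relative to the mean of siNC replicates 1 and 3, siNC replicate 2 was 2.35 times as high for Hba-a1, 2.77 for Hba-a2, 3.36 for Hbb-bs and 3.18 for Hbb-bt. The heme enzymes did not share this, with ratios between 0.560 for Hmox1 and 1.30 for Alas1. Among all genes tested, siNC replicate 2 was at least 2 times both other siNC libraries for 225 genes, or 1.94%, and the 4 globin genes belong to them. Deviations of the libraries from their group means, which leave out the difference between the groups, were correlated between the globin genes with Pearson's r from 0.981 to 0.999 over 6 libraries. These r rest largely on siNC replicate 2, the paralogs may share reads, and all genes share the libraries.

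By level per length, the beta gene Hbb-bs was the highest of the 4 in each siNC library and the third in each siCNN3 library. The siNC means were 133 ± 102 FPKM for Hbb-bs, 106 ± 56.9 for Hba-a1, 96.1 ± 61.7 for Hba-a2 and 34.8 ± 25.5 for Hbb-bt (SD, n = 3), and neighbours in that order overlapped. In siCNN3 they were 27.3 ± 4.21 FPKM for Hba-a1, 21.1 ± 4.07 for Hba-a2, 10.9 ± 2.73 for Hbb-bs and 4.35 ± 1.39 for Hbb-bt (SD, n = 3). There the alpha genes overlapped each other, while the lowest Hba-a2 library, at 16.4 FPKM, was above the highest of Hbb-bs, and the lowest of Hbb-bs was above the highest of Hbb-bt. The mean rank of Hbb-bs among all 11835 genes, counted from the highest FPKM, was 560 in siNC and 5548 in siCNN3.

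The balance of alpha to beta globin RNA also differed between the groups. The Hba sum over the Hbb sum was 1.45, 1.08 and 1.36 under NC siRNA against 2.90, 3.10 and 3.73 under CNN3 siRNA, with no overlap. How the program's handling of reads shared within a pair affects this ratio was not tested. The Hbb-bs share of the Hbb pair was 80.2%, 79.6% and 77.3% in siNC and 72.4%, 69.4% and 73.6% in siCNN3, again without overlap. The Hba-a1 share of the Hba pair was 54.7%, 50.6% and 54.6% in siNC and 54.1%, 57.2% and 58.5% in siCNN3, where the groups overlapped. Both shares depend on how reads were divided within a pair.

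**Figure D2:**
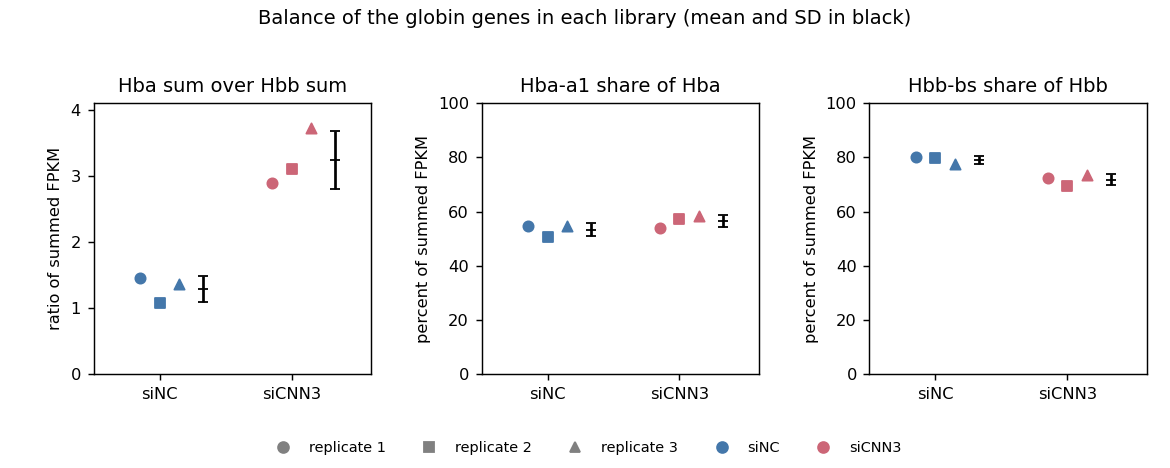
Ratio of summed Hba to summed Hbb FPKM, percent of Hba FPKM from Hba-a1 and percent of Hbb FPKM from Hbb-bs, by library, with group mean and SD (n = 3) in black. The ratio runs from 1.08 to 1.45 in siNC and from 2.90 to 3.73 in siCNN3, and the Hba-a1 share overlaps between the groups.

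Hbb-bs has a second listed transcript, ENSMUST00000153218 (407 nucleotides), with another 5′ exon. It reached 0.520, 0.358 and 0.306 FPKM in the siNC libraries, compared with 0.833, 0.470 and 0.454 in the siCNN3 libraries, so it did not share the lower level of ENSMUST00000023934, which was at 72.9, 250.1 and 75.5 FPKM in siNC and 11.8, 11.8 and 7.31 FPKM in siCNN3. At under 1 FPKM its values are weakly determined and the groups overlapped. Each of the other globin genes had 1 listed transcript.

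The genes whose pattern over the 6 libraries was most like that of Hbb-bs, members left out, were Akap13, Tmco6, Atp2a1, Myl1 and Cntf, with Pearson's r of log2(FPKM + 1) between 0.992 and 0.999. Atp2a1, weakly determined at 0.324 to 1.19 FPKM, encodes the calcium pump of fast muscle and Myl1 a fast myosin light chain. Their differences were smaller than that of Hbb-bs, from a log2 difference of -0.32 for Tmco6 to -0.92 for Myl1. As these genes were picked for following Hbb-bs over both groups, their differences are a description too. By the deviations within groups the most alike were Pappa2, Brd2, Setbp1, Snx7 and Ifi207, with r between 0.995 and 0.999. Ifi207, an interferon-inducible gene, had 2.73, 10.2 and 3.23 FPKM in siNC against 100.1, 92.0 and 69.6 in siCNN3. It thus shared with the globin genes the high siNC replicate 2 but lay higher in siCNN3 (log2 difference 3.96, adjusted p = 0.0099, limma). An r above 0.9 was reached by 276 other genes over the libraries and by 374 within groups. With 1 library left out, 1 to 4 of the first 5 genes and 0 to 3 of the second 5 remained the most alike.

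Few markers of blood cells were listed, and none of those tested was called. Of 28 erythroid genes, 8 had a listed transcript, and 20 did not and were not analysed here, among them the transcription factor genes Gata1 and Klf1 and the erythroid synthase gene Alas2. The summed level of these 8 was 72.1 to 115 FPKM in siNC and 99.1 to 162 FPKM in siCNN3, and most of it came from Gypc, which is also expressed outside blood and was named after its values were seen (38.6 to 72.4 FPKM in siNC, 56.7 to 109 FPKM in siCNN3). Of the 6 tested, 3 lay above 0 and 3 below. Limma called 0 of the 6, where 2.06% of all genes were called. An unadjusted p below 0.05 was reached by 1 of the 6, and by 1152 higher and 712 lower of all 11593 genes. The log2 differences lay between -0.58 for Epor, the erythropoietin receptor, and 1.03 for Tfrc, the transferrin receptor. In 2 of the 6, siCNN3 lay below siNC without overlap, where 9.35% of all genes did. Of 18 leukocyte, platelet and blood stem cell markers, 5 were listed and 13 were not, among them Ptprc. The sum of these 5 was 51.6 to 58.9 FPKM in siNC and 40.8 to 51.9 FPKM in siCNN3. Limma called 0 of 5, again beside 2.06% of all genes, with 0 at an unadjusted p below 0.05. All 5 lay below 0, with a median log2 difference of -0.22. In 2 of the 5, siCNN3 lay below siNC without overlap, again beside 9.35% of all genes. Cd34, also expressed outside blood, was at 33.1, 23.6 and 31.0 FPKM in siNC and 21.9, 28.1 and 33.9 FPKM in siCNN3. The part of blood cells in the globin values was not tested.

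Of 12 muscle markers, 11 were tested, 10 lay below 0 and 4 were called lower, where 0.336% of all genes were, the 3 largest being Acta1, Mylpf and Tnnt3 with log2 differences of -2.12, -1.88 and -1.50 (adjusted p = 0.00473, 0.0099 and 0.0144, limma). Their median log2 difference was -0.86, where that of all genes tested was 0.03. The marker above 0 was Myf5 (log2 difference 0.88, adjusted p = 0.238, limma). Markers of muscle cells were present in both groups, and summed to 181 to 215 FPKM in siNC and to 115 to 130 FPKM in siCNN3. Most of this sum came from Des, at 113 to 125 FPKM in siNC and 84.3 to 103 FPKM in siCNN3. The part of muscle cells in the globin values was not tested. Of 10 other globin genes only Mb was listed. Myoglobin RNA showed 0.550, 1.13 and 1.22 FPKM with NC siRNA and 0.525, 0.655 and 0.617 with CNN3 siRNA, groups that overlapped, and was not called (log2 difference -0.28, adjusted p = 0.518, limma). Alpha globin RNA was above it in every library, by 110 to 299 times in siNC and by 63.9 to 96.5 times in siCNN3.

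None of the 5 heme enzymes was called by limma in either direction, where 1.73% of all genes were called higher and 0.336% lower, and nothing is read from this count of chosen genes. Cpox (chromosome 16 of GRCm38, 58670292 to 58717636) was the only one whose groups did not overlap, above siNC, as for 13.8% of all genes. It reached 13.8, 10.2 and 11.7 FPKM in the siNC libraries, compared with 21.4, 21.9 and 17.7 in the siCNN3 libraries. Its siCNN3 mean, 20.3 ± 2.26 FPKM (SD, n = 3), was 171% of the siNC mean, 11.9 ± 1.80 FPKM, with a log2 difference of 0.73 (standard error 0.157). With 1 library left out the difference ran from 0.64 to 0.84.

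Alas1 (chromosome 9, 106233455 to 106248654), the rate-limiting enzyme of heme synthesis outside the erythroid lineage, had 6.46, 11.5 and 11.2 FPKM in siNC against 12.9, 13.0 and 10.9 in siCNN3. The groups overlapped, and siNC replicate 1 alone was low. The log2 difference was 0.34 with a standard error of 0.226, and ran from 0.0952 without siNC replicate 1 to 0.47 without siNC replicate 2. Its sum hides estimates that moved between its 4 transcripts. ENSMUST00000112524 had 0 FPKM in all libraries other than siCNN3 replicate 3, which had 6.38 FPKM and where ENSMUST00000074082, at 5.15 to 7.77 FPKM in 4 libraries, was listed at 0, as it was in siNC replicate 1.

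Fech, which completes heme, showed 21.9, 26.5 and 26.5 FPKM with NC siRNA and 26.1, 26.4 and 24.0 with CNN3 siRNA. The log2 difference was 0.03 (standard error 0.126), and its sign turned with another scaling of the libraries. Thus the enzymes at the start and the end of the pathway were at levels that overlapped between the groups.

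For the breakdown of heme, Hmox1 (chromosome 8, 75093621 to 75100589) reached 43.2, 17.6 and 19.8 FPKM in the siNC libraries, compared with 39.6, 38.4 and 94.9 in the siCNN3 libraries. Its siCNN3 mean, 57.7 ± 32.3 FPKM (SD, n = 3), was 215% of that of siNC, 26.9 ± 14.2 FPKM. Yet siNC replicate 1 lay above 2 of the 3 siCNN3 libraries, and the log2 difference of 1.06 had a standard error of 0.448. It was 0.63 without siCNN3 replicate 3 and 1.44 without siNC replicate 1. Blvrb (chromosome 7, 27447978 to 27466144) had 55.3, 39.0 and 40.2 FPKM in siNC against 36.0, 37.0 and 60.9 in siCNN3. Its log2 difference was -0.03 with a standard error of 0.239, and turned positive without replicate 1 of either group or replicate 2 of siCNN3.

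**Figure D3:**
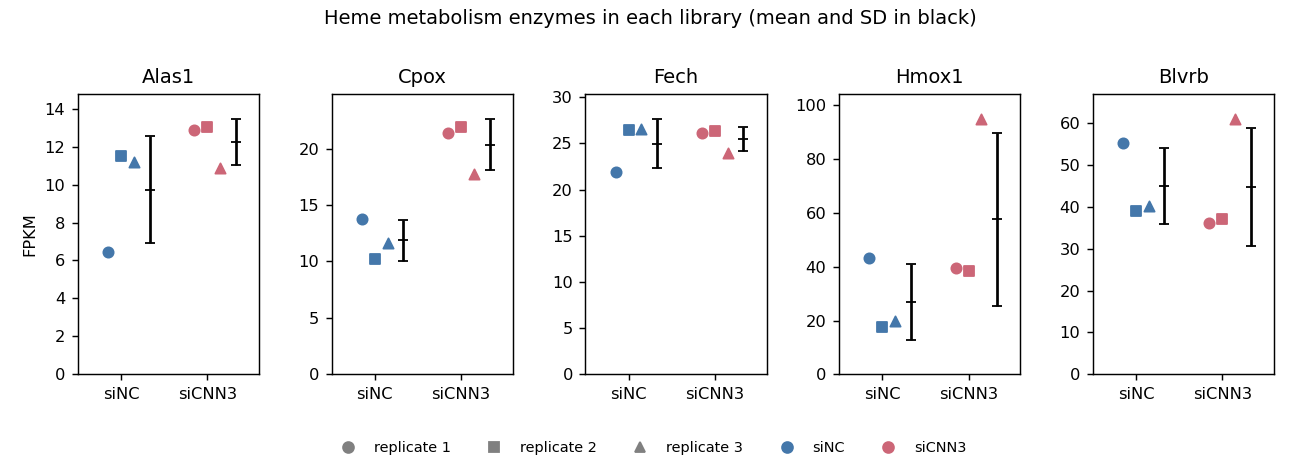
FPKM of the 5 heme enzymes in each siNC (blue) and siCNN3 (red) library, with group mean and SD (n = 3) in black and 1 symbol for each replicate number. Only Cpox has groups that do not overlap, while Hmox1 and Blvrb are highest in siNC replicate 1 and siCNN3 replicate 3 within their groups.

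Within the groups, Hmox1 and Blvrb deviated together (Pearson's r 0.983 over the 6 libraries), as did Alas1 and Fech (0.990), and Hmox1 and Fech ran opposite to each other (-0.924). The libraries behind this were siNC replicate 1 and siCNN3 replicate 3. Both had the highest Hmox1 and Blvrb and the lowest Alas1 and Fech of their group. Over all genes tested, the deviations of siNC replicate 1 and siCNN3 replicate 3 were also correlated (r 0.442). No other pair of a siNC and a siCNN3 library had a higher r, so the pattern is not shown to be particular to these enzymes. Cpox did not share the pattern of the other 4 enzymes, with r between -0.494 and 0.0517 to them. These r are descriptions over 6 points that share their libraries.

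None of the other steps of heme synthesis passed the test. For Alad, Uros, Urod and Ppox, which act between aminolevulinate and protoporphyrin, the log2 differences were 0.17, -0.09, -0.02 and -0.40, and the adjusted p lay between 0.360 for Ppox and 0.957 for Urod (limma). Cpox and Ppox, successive enzymes, thus had differences of opposite sign. Of 16 tested genes for heme synthesis and for the transport of its intermediates, limma called 0 in either direction, where 2.06% of all genes were called. An unadjusted p below 0.05 was reached by 2 of the 16, and by 1152 higher and 712 lower of all 11593 genes. Of the 16, 10 lay above 0, with a median log2 difference of 0.11, compared with 0.03 over all genes. In 2 of the 16, siCNN3 lay above siNC without overlap, where 13.8% of all genes did. Named for this, after their values were seen, were the mitochondrial carriers Slc25a28 (mitoferrin 2, an iron importer) and Slc25a39 (a glutathione carrier). The log2 differences of these carriers were 0.43 and 0.76 (adjusted p = 0.165 and 0.220, limma).

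For the breakdown and transport of heme, limma called 0 of 13 tested genes, where 2.06% of all genes were called. An unadjusted p below 0.05 was found for 2 of the 13, beside 1152 higher and 712 lower of all 11593 genes. Of the 13, 9 lay below 0, and the median log2 difference was -0.10. Hmox2, the constitutive heme oxygenase, and Blvra, the main biliverdin reductase, had log2 differences of 0.06 and 0.19 (adjusted p = 0.876 and 0.563, limma). Haptoglobin (Hp), which binds free hemoglobin and was named after its values were seen, showed 1.32, 6.01 and 3.10 FPKM with NC siRNA and 0.333, 0.270 and 0.106 with CNN3 siRNA. Like the globin genes it was highest in siNC replicate 2 and lowest in siCNN3 replicate 3, and its log2 difference of -1.72 (standard error 0.382) did not pass the test (adjusted p = 0.0820, limma). Lrp1, a receptor for the heme carrier hemopexin and many other ligands, had a log2 difference of -0.35 (adjusted p = 0.157, limma). Its siCNN3 values lay below siNC without overlap, as for 9.35% of all genes.

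Of 13 regulators that respond to heme or act on these genes, 1 was called higher and 0 lower, where 1.73% and 0.336% of all genes were, and 5 had siCNN3 above siNC without overlap, where 13.8% of all genes did. The one called was Nr1d2, a nuclear receptor that binds heme and represses transcription in the circadian clock, which reached 7.69, 7.86 and 7.15 FPKM in the siNC libraries, compared with 14.2, 14.0 and 14.2 in the siCNN3 libraries. The log2 difference of 0.82 (standard error 0.119) passed the test (adjusted p = 0.0261, limma). With 1 library left out it was called only where that was siCNN3 replicate 3. Its paralog Nr1d1, named after its values were seen, had 7.76, 8.57 and 4.97 FPKM in siNC against 16.4, 12.8 and 19.1 in siCNN3, a log2 difference of 1.09 that did not pass the test (adjusted p = 0.0749, limma). Bach1, a heme-sensitive repressor of Hmox1, and Eif2ak1, a kinase that slows globin translation when heme is short, had log2 differences of -0.08 each (adjusted p = 0.859 and 0.886, limma). Nfe2l2, which encodes the Hmox1 activator NRF2, had a log2 difference of 0.26 (adjusted p = 0.263, limma).

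Of 15 genes that share the activator NRF2 with Hmox1, limma called 0, where 2.06% of all genes were called. An unadjusted p below 0.05 was seen for 3 of the 15, beside 1152 higher and 712 lower of all 11593 genes. Of the 15, 11 lay above 0, and the median log2 difference was 0.09. Named after their values were seen were the light and heavy ferritin genes Ftl1 and Fth1, whose products store iron, with log2 differences of 0.08 and -0.07 (adjusted p = 0.839 and 0.847, limma). Slc7a11, a cystine importer named after its values were seen, showed 0.187, 0.452 and 0.314 FPKM with NC siRNA and 8.06, 6.50 and 1.42 with CNN3 siRNA (log2 difference 2.06, adjusted p = 0.0904, limma).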

How the data were processed

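RNA of 3 siNC and 3 siCNN3 libraries of C2C12 cells was compared. The authors deposited FPKM for 24023 Ensembl transcripts per library. The submitters' processing notes name Bowtie 0.12.2 and the builds mm8 and mm10 without their roles, and the program and annotation behind the FPKM are not given in the sources used here, nor is the depth. Identifiers without version were matched to GENCODE M21 (GRCm38) for 23949 transcripts, and the 74 others (0.159% to 0.220% of FPKM) were left out. FPKM were summed per gene, filtered at a mean of 0.5, and log2(FPKM + 1) was fitted across 11593 genes with limma 3.58.1 in R 4.3.3 (mean-variance trend, Benjamini-Hochberg adjustment over all genes, threshold 0.05), tested on simulated data. Paralogs were also summed before the fit. Sequences were compared in Python 3.11.15 with Biopython 1.88.

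The members, the gene lists and the rule for named genes were chosen with earlier results of these data known. Named were the members, Cnn3, up to 3 called genes of each list, fixed enzymes and blood markers, and the 5 genes most like Hbb-bs by each of 2 measures. Other list genes were named after their values were seen. Some genes of the lists are not reported here. Alternatives were a pseudocount of 0.1, no filter or one at 5 FPKM, quantile normalization, scaling by the median of ratios, no trend, a replicate block, single transcripts and each library left out.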

Additional observations from a re-analysis of the deposited data

How the results depend on the processing

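Summed by gene, the 4 globin genes, Cpox, Hmox1 and Cnn3 kept their sign in every alternative run. As reported, 200 genes were called higher and 39 lower. Genes called lower were 63 when libraries were scaled by the median of ratios and 93 after quantile normalization, where 77.7% and 68.2% of the called genes were higher, compared with 83.7%. The number of globin genes called lower, 2 as reported, was 1 without a filter or without a trend and 2 with the pseudocount of 0.1. It was 3 with the filter at 5 FPKM and under both scalings. When single transcripts were fitted, no globin transcript was called. This number is no test of these genes. The Hba sum had log2 differences of -1.94 and -2.05 under the scalings. After quantile normalization 1 gene was called lower in the list for mitochondrial heme a and c and for proteins that work with cytochromes. Fech turned to -0.00297 by the median of ratios and to -0.0714 after quantile normalization, and ran from -0.0555 (without siNC replicate 1) to 0.0763 when 1 library was left out. Blvrb ran from -0.27 to 0.13 when 1 library was left out, above 0 without replicate 1 of either group or replicate 2 of siCNN3. On their own, the Alas1 transcript ENSMUST00000219129 was at -0.65 and the Blvrb transcripts ENSMUST00000037399 and ENSMUST00000108357 at 0.0783 and 0.16. The causes were not tested.

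The replicate numbers did not pair the libraries, since deviations of same-numbered libraries were correlated with r of -0.278, 0.314 and -0.0247 and not every library correlated best with its own number. The highest r was 0.442, between siNC replicate 1 and siCNN3 replicate 3. With the replicate block 62 genes were called higher and 6 lower, with 1 globin gene, 0 heme-responsive regulators and 2 muscle markers among them. Leaving out 1 library gave 16 to 443 higher and 4 to 159 lower genes. Among them were 0 to 4 globin genes lower, 0 to 1 heme enzymes higher, 0 to 1 regulators higher and 0 to 1 NRF2 targets higher. Of heme breakdown, 0 to 1 genes were lower, as were 0 to 1 of the list of mitochondrial heme and proteins that work with cytochromes. Muscle markers were 1 to 4 lower and 0 to 1 higher. The log2 difference then ran from -1.46 to -0.95 for Cnn3, from -2.13 to -1.46 for the Hba sum and from -3.48 to -2.59 for the Hbb sum. Of the 5 genes most like Hbb-bs, 1 to 4 remained over the libraries and 0 to 3 within groups. The unknown depth limits what can be said of values near or below 1 FPKM.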

Other observations

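Heme also serves the respiratory chain. Of 12 genes for mitochondrial heme a and c and for proteins that work with cytochromes, limma called 0 in either direction, where 2.06% of all genes were called. Among the 12, 2 had an unadjusted p below 0.05, as did 1152 higher and 712 lower of all 11593 genes. Of the 12, 8 lay above 0, with a median log2 difference of 0.12. Hccs, which attaches heme to cytochrome c, reached 17.0, 17.6 and 19.4 FPKM in the siNC libraries, compared with 21.8, 19.7 and 22.8 in the siCNN3 libraries (log2 difference 0.24, adjusted p = 0.385, limma). Cytochrome c itself (Cycs) had 25.0, 39.5 and 34.6 FPKM in siNC against 68.6, 65.1 and 38.0 in siCNN3, where the groups overlapped (log2 difference 0.75, adjusted p = 0.231, limma). The microsomal reductase gene Cyb5r3, whose product also keeps hemoglobin iron reduced in red cells, showed 351, 365 and 381 FPKM with NC siRNA and 206, 229 and 281 with CNN3 siRNA (log2 difference -0.62, adjusted p = 0.0720, limma). Its groups did not overlap, where 9.35% of all genes had siCNN3 below siNC. These 3 genes were named after their values were seen.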
